A study of Mus musculus with 18 samples.

Results

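Iron uptake, storage and export genes were followed as a set of 10 named genes, picked by symbol from the 27179 genes of the normalized count table: Tfrc, Slc39a14, Slc11a2 and Steap3 (uptake), Fth1, Ftl1 and Ncoa4 (storage and its release), Slc40a1 (export), and Aco1 and Ireb2 (regulation). All 10 were present in the table and all 10 passed the filter on low values, which asked for a mean of 10 or more normalized counts in the 18 libraries and was passed by 14353 genes. RNA was sequenced from 18 cultures of primary mouse mesenchymal stem cells (MSCs), the adherent stromal cells of bone marrow, in 3 groups of 6 libraries (young MSCs, old MSCs and rejuvenated old MSCs). Young MSCs came from mice of 6 weeks and old MSCs from mice of 18 to 24 months, all male and of the C57BL6 genotype, and every culture lasted 7 days with 100000 cells per well in alpha-MEM with fetal bovine serum. Young and old MSCs were untreated, and rejuvenated old MSCs were old MSCs kept for the same time in a shared well with young MSCs, behind a membrane that passes soluble factors but no cells. Old MSCs sharing a well with other old MSCs were not analysed here, so the presence of a partner layer and the age of its donors cannot be told apart. The titles call the libraries biological replicates without saying whether they came from separate mice. The p-values therefore rest on the spread between cultures within groups, pooled over all 3 groups.

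Cells take up iron mainly by binding transferrin to its receptor, pulling the complex into endosomes, reducing the iron there and passing it to the cytosol. Iron that is not used is stored inside ferritin, a shell of heavy and light chains, or leaves through ferroportin, the known cellular iron exporter. Iron regulatory proteins bind a short hairpin, the iron-responsive element (IRE), when iron is scarce: in the 5′ untranslated region (UTR) they hold back translation, and in the 3′ UTR of the transferrin receptor they protect the transcript from decay. In bone marrow, macrophages recycle iron from red cells and supply it to developing ones.

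The hairpin that ties uptake, storage and export together was found by sequence in the transcripts of 4 of the 10 genes. The search read 1 transcript a gene from GENCODE M21 (GRCm38, the mm10 assembly), on the transcript strand only, for 27 bases holding an unpaired C, 5 paired bases, the loop CAGTGN with a last base other than G, and a lower stem with at least 3 of 5 positions paired, G with T counted as a pair. It returned 61 of 21877 genes (0.279%), 8 of them in the 5′ UTR, 22 in the 3′ UTR and 31 in coding sequence. Shown are all hits in the 10 genes, 5′ to 3′, with the 6-base loop in capitals. The ferritin and ferroportin hits lie in the 5′ UTR, and the transferrin receptor carries 4 hits in its 3′ UTR. The letters A to D only number these 4 hits from 5′ to 3′ and are not published hairpin names. Hairpins with another loop were outside the search.
Fth1, chr19:9982733-9982759, plus strand: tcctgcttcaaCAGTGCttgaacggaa
Ftl1, chr7:45459780-45459806, minus strand: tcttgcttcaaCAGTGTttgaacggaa
Slc40a1, chr1:45925466-45925492, minus strand: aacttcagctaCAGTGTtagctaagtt
Tfrc hairpin A, chr16:32631220-32631246, plus strand: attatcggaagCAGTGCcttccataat
Tfrc hairpin B, chr16:32631599-32631625, plus strand: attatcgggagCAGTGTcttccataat
Tfrc hairpin C, chr16:32631664-32631690, plus strand: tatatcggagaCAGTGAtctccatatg
Tfrc hairpin D, chr16:32631711-32631737, plus strand: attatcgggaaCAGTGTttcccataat

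No hit in the other 6 genes means only that these letters are not in the transcript searched. Other transcripts of a gene were not searched, among them a coding transcript of Slc11a2 of 4415 bases, beside the 3025 bases searched. The pattern allowed no bulge in the upper stem, so a hairpin with such a bulge would be missed.

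Values are normalized counts, the reads of a gene divided by 1 size factor per library. Fold changes are differences of group means of log2(normalized count + 1), with adjusted p-values from 1 limma fit over all 18 libraries and all 14353 genes. The standard error (SE) of a gene is the same in all 3 comparisons. The old libraries enter 2 of the comparisons and so do the young and the rejuvenated old ones, so the comparisons are not independent and their values are given side by side. In bulk RNA, fewer cells of a type and less RNA per cell cannot be told apart.

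Old, rejuvenated old and young libraries differed in more than iron genes. The libraries held 22936251 to 29559194 reads on genes. Of 20 macrophage markers, 10 stayed at 3 reads or fewer in all young libraries, with the defining genes Ptprc and Adgre1 at 0 reads in all 6. Their summed normalized count was 1012 to 1138 in young, 18620 to 23017 in old and 18495 to 22359 in rejuvenated old libraries. The 14 stromal markers summed to 327498 to 354127 in young, 445107 to 471258 in old and 435895 to 468261 in rejuvenated old libraries, with Thy1 and Lum at or below 3 reads in every old library. That sum was carried by Cxcl12 in old and rejuvenated old libraries, and the other 13 markers, summed after the values were seen, ran the other way, at 318348 to 344893 in young, 249932 to 266673 in old and 194129 to 226729 in rejuvenated old libraries. In young against old MSCs 7 of the 14 were higher, among them Pdgfra and Dcn, and 7 were lower, among them Cxcl12 and Eng. The part of this cell makeup in the differences of iron genes was not tested.

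In rejuvenated old against old MSCs, 9 of the 10 genes fell and none rose, where 41.6% of all genes tested were called, 21% higher and 20.6% lower. The median log2 fold change of the 10 genes was -0.21, beside 0.01 over all genes. The falls were largest for the endosomal reductase Steap3 (-0.85), the exporter Slc40a1 (-0.52), the ferritin heavy chain Fth1 (-0.48) and the receptor Tfrc (-0.43), and the other 5 calls lay between -0.18 and -0.11. In 6 of the genes all 6 rejuvenated old libraries lay below all 6 old libraries, as did 11.6% of all genes. The median absolute log2 fold change of macrophage markers in this comparison was 0.10, beside 0.15 over all genes. Of 18 tested, 1 was higher, 1 lower and 16 were not called. Where such markers were near 0 in young libraries, the SE includes that spread, so the 16 not called do not show an absence of change. Of 17 proliferation genes 8 were higher and none lower. Of the 14 stromal markers 4 were higher and 6 lower (71.4% called), among them Ly6a (1.07), Dcn (0.60), Col1a1 (-0.41) and Vcam1 (-0.36).

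In young against old MSCs, 6 of the 10 genes were higher, 2 were lower and 2 were not called, where 85.7% of all genes were called, 41.6% higher and 44.1% lower. Their median log2 fold change was 0.34, beside -0.02 over all genes. Of 18 macrophage markers tested, 17 were lower and 1 higher in young than in old MSCs. The exporter Slc40a1 (2.47) and Steap3 (2.17) stood far above the other 8 genes, which ran from -0.43 to 0.88. In 8 of the genes the groups did not overlap, as in 73.9% of all genes, with young libraries above in 6 and below in 2, where they were below in 38.2% of all genes. In rejuvenated old against young MSCs, 8 genes were lower, Aco1 was higher and Ncoa4 was not called, where 85.6% of all genes were called, 44.1% higher and 41.5% lower. The median was -0.63 beside 0.03 over all genes. All rejuvenated old libraries lay below all young ones in 7 of the genes, as in 34% of all genes, where 70.5% of all genes did not overlap.

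**Figure D1:**
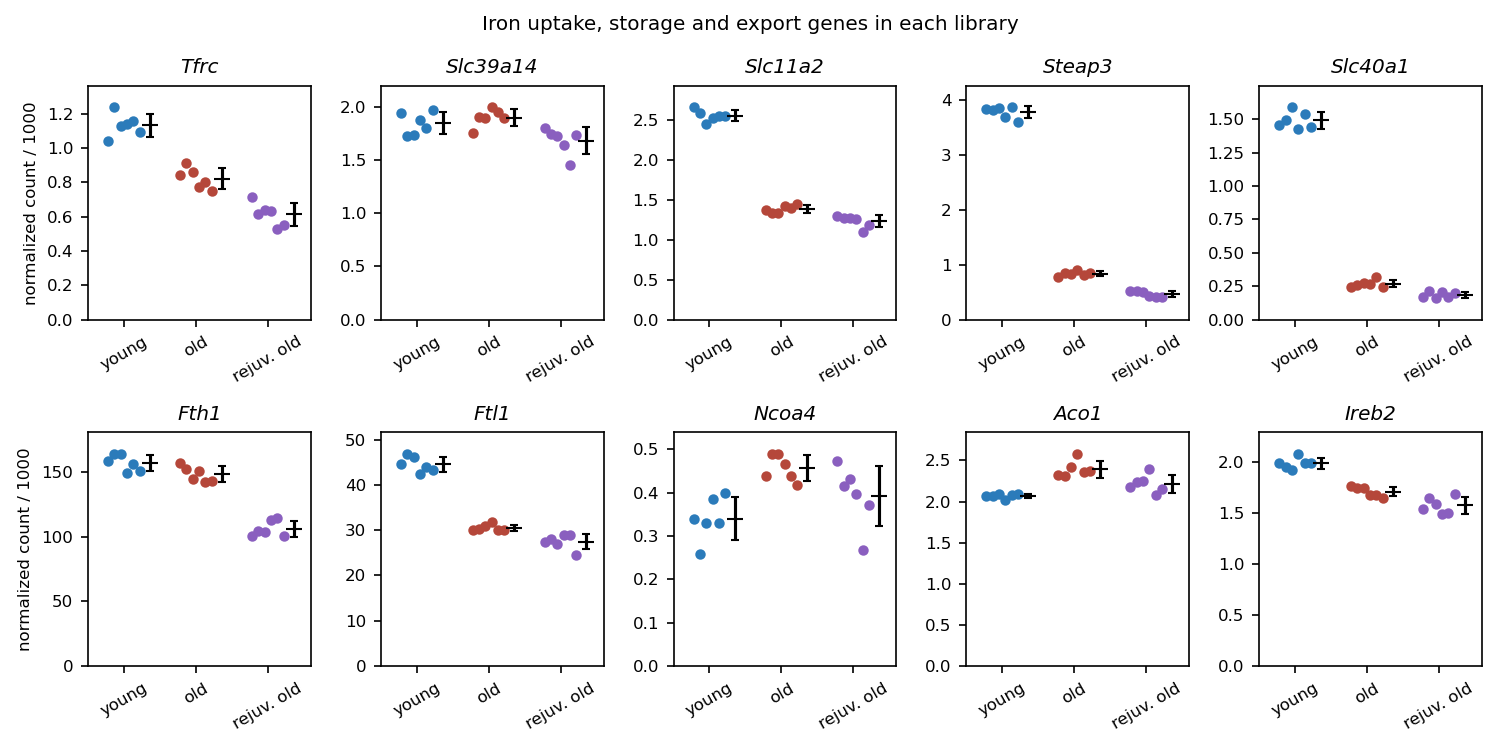
Normalized count (divided by 1000, axis from 0) of each of the 10 genes in each library, 1 point a library, with the mean and SD of the 6 libraries as a black bar beside each group. Slc40a1 and Steap3 separate young libraries most widely from all others, and Tfrc, Ftl1, Slc11a2 and Ireb2 do so by less. Fth1 separates rejuvenated old libraries from young and old ones that overlap. Tfrc, Ftl1, Slc40a1, Slc11a2 and Steap3 also have all rejuvenated old libraries lowest.

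**Figure D2:**
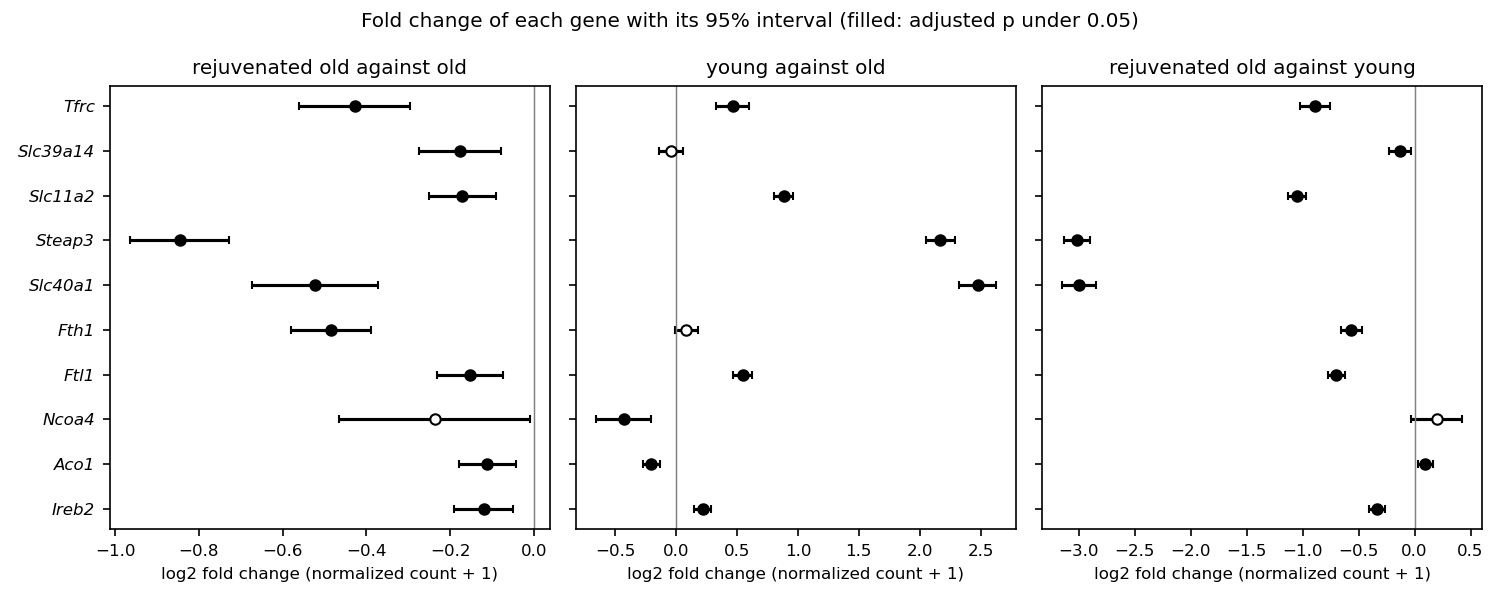
Log2 fold change of each gene (points) with its 95% confidence interval (bars) in 3 comparisons, on axes of different width, filled where the adjusted p was under 0.05. Every point lies below 0 in rejuvenated old against old MSCs, and the intervals of Slc40a1 and Steap3 lie farthest from 0 in both comparisons with young MSCs.

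Tfrc encodes the transferrin receptor, the gate of transferrin-bound iron (gene number 22042, chromosome 16, 32608896 to 32632794, plus strand). Its lowest, median and highest normalized counts were 1038, 1134 and 1237 in young, 748, 820 and 914 in old, and 525, 625 and 713 in rejuvenated old libraries. The 3 groups did not overlap, with young highest and rejuvenated old lowest. Tfrc fell by 0.43 on the log2 scale from old to rejuvenated old MSCs (SE 0.06, adjusted p = 1.33e-05) and was 0.46 higher in young than in old MSCs (adjusted p = 5.99e-07). Rejuvenated old stood 0.89 below young MSCs, at a log2 fold change of -0.89 (adjusted p = 9.17e-12).

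Slc39a14 encodes a plasma membrane importer of iron not bound to transferrin, and of zinc and manganese (gene number 213053, chromosome 14, 70303467 to 70351452, minus strand). It had normalized counts of 1726, 1838 and 1967 (lowest, median, highest) in young, 1755, 1895 and 1993 in old, and 1447, 1730 and 1801 in rejuvenated old libraries. The groups overlapped in each pair. The log2 fold change was -0.18 in rejuvenated old against old MSCs (SE 0.05, adjusted p = 0.00491) and -0.13 against young MSCs (adjusted p = 0.0131). Between young and old MSCs it was -0.04 (95% interval -0.14 to 0.06, adjusted p = 0.402), and its sign turned with library scaling, to 0.03 with the same total per library.

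Slc11a2 encodes the divalent metal transporter that carries ferrous iron out of the endosome (gene number 18174, chromosome 15, 100387898 to 100424209, minus strand). Normalized counts of Slc11a2 were 2460, 2555 and 2666 in young, 1333, 1391 and 1451 in old, and 1097, 1272 and 1302 in rejuvenated old libraries. All young libraries were above all others, and all rejuvenated old libraries were below all old ones. Slc11a2 changed by a log2 fold of -0.17 in rejuvenated old against old (SE 0.04, adjusted p = 0.00109), 0.88 in young against old (adjusted p = 7.23e-16) and -1.05 in rejuvenated old against young MSCs (adjusted p = 2.58e-17). A predicted gene, Gm5475, overlaps it on the opposite strand, and the strand setting of the counting was not given in the sources used here.

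Steap3 encodes the ferric reductase of the transferrin endosome (gene number 68428, chromosome 1, 120226414 to 120271081, minus strand). Steap3 had normalized counts of 3602, 3821 and 3866 in young, 779, 842 and 897 in old, and 409, 472 and 529 in rejuvenated old libraries. The groups did not overlap. The mean of young was 4.50 times that of old MSCs and 8.06 times that of rejuvenated old MSCs. On the log2 scale Steap3 changed by -0.85 in rejuvenated old against old (SE 0.06, adjusted p = 9.94e-11), 2.17 in young against old (adjusted p = 4.99e-20) and -3.02 in rejuvenated old against young MSCs (adjusted p = 1.11e-22). It had the lowest fold change of the 10 genes from old to rejuvenated old MSCs, while against young MSCs it stood level with Slc40a1 (-3.00).

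Fth1 encodes the ferritin heavy chain, which oxidises iron as it enters the shell (gene number 14319, chromosome 19, 9980600 to 9985111, plus strand). In normalized counts it gave 149031, 157204 and 163969 in young, 141760, 147640 and 156890 in old, and 100181, 104122 and 114117 in rejuvenated old libraries. Young and old libraries overlapped, and all rejuvenated old libraries were below both. Fth1 fell in both comparisons of rejuvenated old MSCs, with log2 fold changes of -0.48 in rejuvenated old against old MSCs (SE 0.05, adjusted p = 1.91e-08) and -0.57 against young MSCs (adjusted p = 6.89e-11). Young against old gave 0.08 (95% interval -0.01 to 0.18, adjusted p = 0.0949), a difference that was called with the same total per library (0.16, adjusted p = 0.00122), the same 75th percentile (0.12, adjusted p = 0.0158), edgeR (0.09, adjusted p = 0.0359) and DESeq2 (0.09, adjusted p = 0.0185).

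Fth1 was among the most abundant transcripts of every library. It took 0.586% to 0.640% of the reads in young, 0.531% to 0.580% in old and 0.374% to 0.420% in rejuvenated old libraries. By reads it ranked 4 or 5 in young, 5 in old and 10 to 14 in rejuvenated old libraries.

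Ftl1 encodes the ferritin light chain, which helps to lay down the iron core (gene number 14325, chromosome 7, 45457944 to 45459886, minus strand). Ftl1 had normalized counts of 42497, 44283 and 46883 in young, 29967, 30148 and 31781 in old, and 24566, 27758 and 28951 in rejuvenated old libraries. The 3 groups did not overlap. The log2 fold change was -0.15 in rejuvenated old against old (SE 0.04, adjusted p = 0.00269), 0.55 in young against old (adjusted p = 5.03e-12) and -0.70 in rejuvenated old against young MSCs (adjusted p = 5.3e-14). Transcripts of 6 annotated genes elsewhere match that of Ftl1 at 95% identity or more over at least 200 bases, among them Ftl1-ps1 at 99.6% over 910 bases, so its counts are uncertain where reads fit several copies. The only one with a row in the table, Ftl1-ps2, had 3 to 15 reads in a library. A gene of unknown coding status, Gm10252, overlaps Ftl1 on the opposite strand.

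Ncoa4 encodes the cargo receptor that carries ferritin to the lysosome, where its iron is released (gene number 27057, chromosome 14, 32159879 to 32179855, plus strand). Its normalized counts were 259, 336 and 398 in young, 418, 453 and 490 in old, and 267, 407 and 473 in rejuvenated old libraries. All young libraries were below all old ones, and the rejuvenated old libraries overlapped both. The log2 fold change of young against old MSCs was -0.43 (SE 0.11, adjusted p = 0.000925). Rejuvenated old against old gave -0.24 (95% interval -0.46 to -0.01, adjusted p = 0.0887), and against young MSCs 0.20 (adjusted p = 0.0996).

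The young against old call of Ncoa4 held with any 1 of the 18 libraries left out (-0.48 to -0.36), while both comparisons with rejuvenated old MSCs moved with single libraries. Against old MSCs the value was -0.29 without rejuvenated old replicate 1, where it was called (adjusted p = 0.0345), and -0.13 without rejuvenated old replicate 5 (adjusted p = 0.261). Against young MSCs the rise was called without rejuvenated old replicate 5 (0.30, adjusted p = 0.00324) or without young replicate 6 (0.24, adjusted p = 0.049), and the value was 0.12 without young replicate 2 (adjusted p = 0.283). A processed pseudogene, Gm6768, matches 1878 of the 4065 bases of its transcript at 99.9% and has no row of its own, so the Ncoa4 counts are uncertain.

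Slc40a1 encodes ferroportin, the exporter (gene number 53945, chromosome 1, 45908070 to 45926532, minus strand). Slc40a1 had normalized counts of 1425, 1476 and 1590.0 in young, 246, 264 and 317 in old, and 163, 185 and 215 in rejuvenated old libraries. The groups did not overlap, with young libraries far above the rest. The mean of young was 5.56 times that of old and 7.99 times that of rejuvenated old MSCs. On the log2 scale Slc40a1 differed by 2.47 in young against old (SE 0.07, adjusted p = 3.74e-19), -0.52 in rejuvenated old against old (adjusted p = 4.9e-06) and -3.00 in rejuvenated old against young MSCs (adjusted p = 1.04e-20).

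Aco1 and Ireb2 encode the iron regulatory proteins that bind the hairpin, and Aco1 is also the cytosolic aconitase (gene number 11428, chromosome 4, 40143265 to 40199009, plus strand). Aco1 had normalized counts of 2023, 2076 and 2090.3 in young, 2306, 2362 and 2581 in old, and 2080.5, 2211 and 2389 in rejuvenated old libraries. All young libraries were below all old ones, and the rejuvenated old libraries overlapped both. The log2 fold change was -0.11 in rejuvenated old against old (SE 0.03, adjusted p = 0.0104) and -0.21 in young against old MSCs (adjusted p = 5e-06). The rise of 0.10 from young to rejuvenated old MSCs (adjusted p = 0.0106) was lost when libraries were set to the same total (0.01, adjusted p = 0.861), the same 75th percentile (0.06, adjusted p = 0.0791) or the same quantiles (0.05, adjusted p = 0.146).

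Ireb2, whose protein is removed when iron is plentiful, lies on chromosome 9 (gene number 64602, 54862658 to 54912534, plus strand). Its normalized counts were 1926, 1989.6 and 2082 in young, 1649.8, 1712 and 1762 in old, and 1493, 1563 and 1684 in rejuvenated old libraries. Young libraries were above all others, and old and rejuvenated old libraries overlapped. Ireb2 changed by a log2 fold of -0.12 in rejuvenated old against old (SE 0.03, adjusted p = 0.00652), 0.22 in young against old (adjusted p = 2.88e-06) and -0.34 in rejuvenated old against young MSCs (adjusted p = 2.98e-09). Aco1 and Ireb2 thus had opposite signs between young and old MSCs and the same sign between rejuvenated old and old MSCs.

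Within the rejuvenated old group, replicate 5 had the lowest value in 6 of the 10 genes and replicate 1 the highest in 5. With any 1 of the 18 libraries left out, 9 or 10 of the 10 genes were called between rejuvenated old and old MSCs. Of all genes, 37.9% to 41.7% were called in those fits.

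Levels between genes were compared as reads per kilobase (of 1 annotated transcript) and per 1000000 reads. In young MSCs the order was Fth1 (4120 ± 155, SD, n = 6), Ftl1 (1806 ± 63.5), Slc11a2 (33.2 ± 0.947), Steap3 (28.7 ± 0.739), Aco1 (21.2 ± 0.248), Slc40a1 (17.4 ± 0.691), Slc39a14 (14.7 ± 0.871), Ireb2 (13.5 ± 0.393), Tfrc (9.08 ± 0.517) and Ncoa4 (3.29 ± 0.486). The only neighbours whose libraries overlapped there were Slc39a14 and Ireb2. The place of Slc11a2 depended on its transcript, of 3025 bases here, since over its longest coding transcript of 4415 bases (a choice added after the values were seen) it stood at 22.8 ± 0.649, below Steap3. In old MSCs Slc40a1 was last at 2.97 ± 0.296 and Steap3 eighth at 6.06 ± 0.296, next to and overlapping Tfrc at 6.26 ± 0.430. In rejuvenated old MSCs Slc40a1 was again last at 2.04 ± 0.241, and the libraries of Tfrc (4.62 ± 0.515), Ncoa4 (3.56 ± 0.646) and Steap3 (3.35 ± 0.401) overlapped in turn.

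Ratios taken within a library do not depend on the scaling of libraries and are given as descriptions. The heavy over light chain ratio of counts, Fth1 over Ftl1, was 4.66 to 5.23 in old, 3.65 to 4.10 in rejuvenated old and 3.47 to 3.56 in young libraries. The groups did not overlap, and rejuvenated old libraries lay between old and young. The importer over exporter ratio, Tfrc over Slc40a1, was 0.710 to 0.827 in young, 2.52 to 3.53 in old and 2.78 to 4.17 in rejuvenated old libraries. Only the young libraries stood apart in that ratio. Aco1 over Ireb2 was 0.971 to 1.08 in young, 1.31 to 1.54 in old and 1.28 to 1.60 in rejuvenated old libraries, again with young apart. Tfrc over Fth1 on the log2 scale was -7.25 to -7.03 in young, -7.61 to -7.38 in old and -7.76 to -7.14 in rejuvenated old libraries, the last range holding that of old libraries and overlapping that of young ones.

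**Figure D3:**
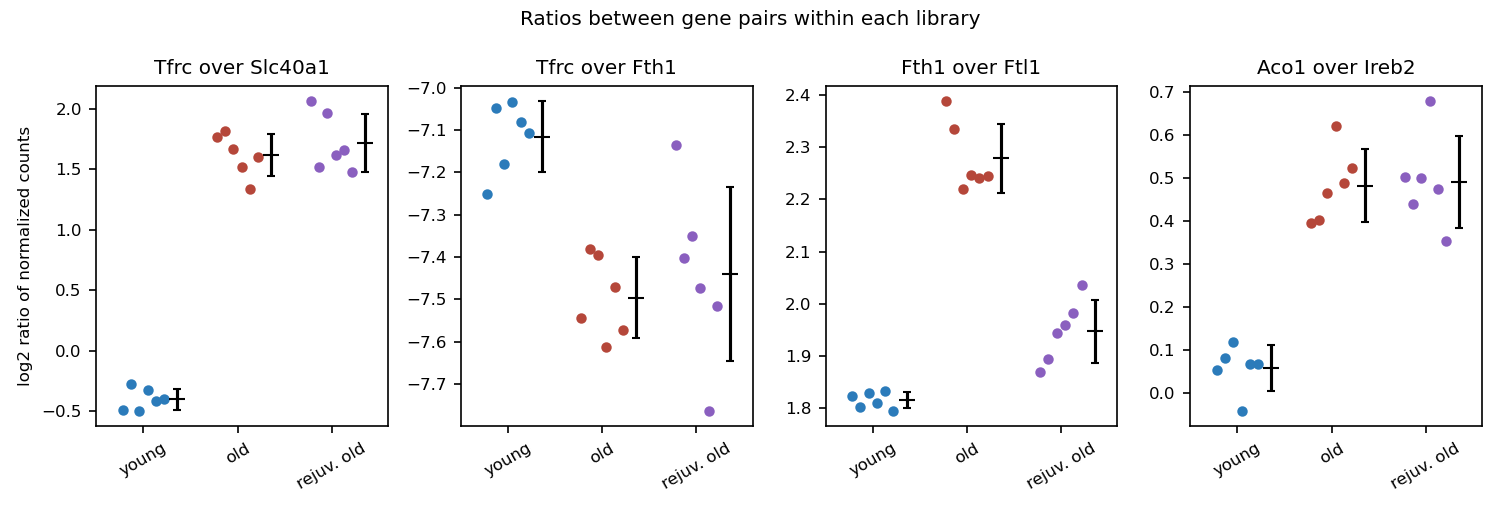
Log2 ratio of normalized counts of 4 gene pairs in each library, 1 point a library, with the mean and SD of each group of 6 as a black bar. Fth1 over Ftl1 is the 1 pair in which old and rejuvenated old libraries do not overlap (4.66 to 5.23 against 3.65 to 4.10 as plain ratios).

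Chromosome medians differed between young and old MSCs, and each gene was set beside the genes of its chromosome. The median log2 fold change of young against old was -0.69 on chromosome 1 and -0.75 on chromosome 16, while it was 0.61 on chromosome 7. Slc40a1 and Steap3 lay above 95.5% and 94.6% of the genes tested on chromosome 1, and Tfrc above 91.5% of those on chromosome 16. Ftl1, at 0.55, lay above 46.7% of the genes of chromosome 7, near the middle of its chromosome. Ireb2 was likewise near the middle, above 51.0% of the genes of chromosome 9. The part of these chromosome medians in the differences was not tested. In rejuvenated old against old MSCs the chromosome medians ran only from -0.04 to 0.06, and each of the 10 genes lay below the median of its chromosome, with Steap3 above only 2.38% of the genes of chromosome 1 and Fth1 above 5.61% of those of chromosome 19.

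**Figure D4:**
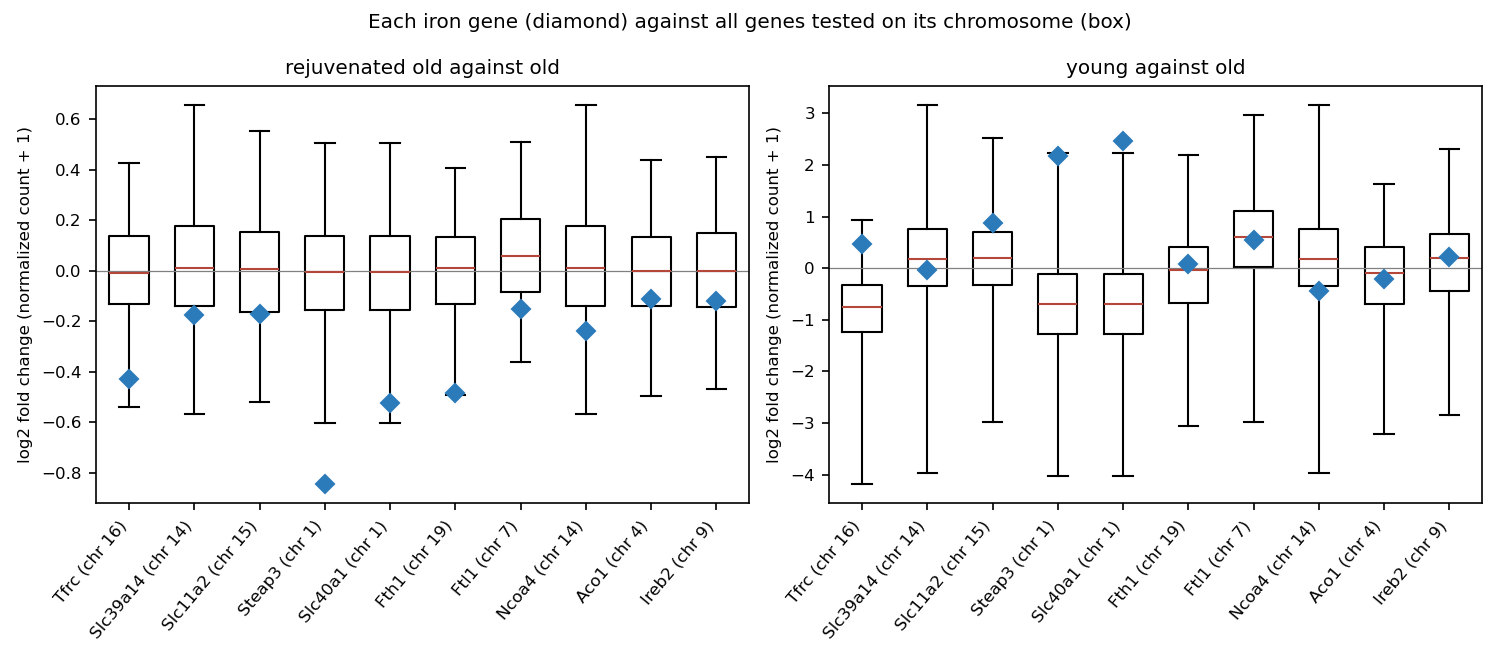
Log2 fold change of each of the 10 genes (diamond) beside all genes tested on its chromosome (box from the lower to the upper quartile, line at the median, whiskers at the 5th and 95th percentiles). In rejuvenated old against old MSCs every diamond lies below the line of its box, and in young against old MSCs the boxes of chromosomes 1 and 16 lie low and that of chromosome 7 high.

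The iron genes around the 10 were taken from 5 lists, of uptake partners, of storage and export partners, of iron-sulfur cluster assembly, of heme metabolism and of other transcripts known to carry an IRE. Of 90 listed genes with a row, 83 were tested. In rejuvenated old against old MSCs 21 rose and 18 fell (47% called, median log2 fold change 0.02), close to the 41.6% of all genes, and in young against old MSCs 33 were higher and 39 lower (86.7% called, median -0.04). Among the lists, the counts in rejuvenated old against old MSCs were 4 higher and 3 lower of 15 uptake partners, 4 and 3 of 13 storage and export partners, 10 and 4 of 31 iron-sulfur genes, 3 and 7 of 20 heme genes, and 0 and 1 of 4 other IRE transcripts. In young against old MSCs they were 7 and 7, 6 and 5, 13 and 15, 7 and 10, and 0 and 2.

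Among the direct partners of the 10 genes, transferrin, Trf, averaged 275 normalized counts in old, 338 in rejuvenated old and 7.54 in young libraries. Its log2 fold change was -5.16 in young against old MSCs (adjusted p = 3.51e-16). From old to rejuvenated old MSCs it was 0.29 (SE 0.22, adjusted p = 0.301). That SE includes the spread of the low young counts (2.99 to 14.4), so the missing call does not show an absence of change. Old libraries ran from 244 to 294 and rejuvenated old ones from 283 to 364, which overlap. Hfe, which binds the transferrin receptor, rose in rejuvenated old against old MSCs (0.31, adjusted p = 0.0013). Mcoln1, the endolysosomal channel that passes iron, fell (-0.34, adjusted p = 2.24e-08). Fbxl5, the ubiquitin ligase subunit that removes Ireb2 protein, rose by 0.19 (adjusted p = 0.00106) and was 0.73 higher in young than in old MSCs (adjusted p = 2.38e-13). Herc2, the ligase that removes Ncoa4 protein, fell (-0.32, adjusted p = 1.55e-05), and the ferroxidase Cp, which works beside ferroportin, fell as well (-0.21, adjusted p = 0.00152). Pcbp2, an iron chaperone, rose (0.19, adjusted p = 2.76e-06), while Pcbp1, which loads ferritin, stood at 0.03 (adjusted p = 0.412).

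Past the direct partners, the largest changes among the called genes of each list in rejuvenated old against old MSCs were in named genes of several functions. Haptoglobin, Hp, rose by 0.80 (adjusted p = 4.71e-06), and the hemopexin receptor Lrp1 fell (-0.43, adjusted p = 4.7e-08). Bmp6, a signal that controls hepcidin in liver, rose from a mean of 95.4 in old to 313 in rejuvenated old libraries (log2 fold change 1.68, adjusted p = 4.39e-09), and Neo1, the receptor that binds hemojuvelin, fell (-0.33, adjusted p = 1.13e-07). Of the iron-sulfur genes, Nubpl, an assembly factor of respiratory complex I, rose by 0.38 (adjusted p = 0.000914) and Fdxr, the ferredoxin reductase, fell (-0.72, adjusted p = 4.15e-09). Of the heme genes, Blvra, a biliverdin reductase, rose by 0.18 (adjusted p = 0.0109), and Hmox1, which frees iron from heme, fell from a mean of 22335 to 16061 (-0.48, adjusted p = 3.62e-10).

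In young against old MSCs the same rule gave larger values, with 1 exception. The largest rise among storage and export partners was smaller (Bola2, 0.90) than that in rejuvenated old against old MSCs (Bmp6, 1.68). Hp averaged 48.8 in young and 22571 in old libraries (log2 fold change -8.86, adjusted p = 6.56e-26), and the metalloreductase Steap4 averaged 189.6 and 4.09 (5.55, adjusted p = 1.3e-10). Heph, a ferroxidase, averaged 2.83 and 131 (-5.36, adjusted p = 1.09e-13), and Bola2, a cytosolic iron-sulfur chaperone, was 0.90 higher in young MSCs (adjusted p = 1.07e-10). Lyrm4, the partner of the cysteine desulfurase, was 1.07 higher (adjusted p = 2.95e-14) and Fdxr lower (-2.65, adjusted p = 4.05e-21). Hebp1, a heme-binding protein, was 1.12 higher (adjusted p = 3.54e-16), the constitutive heme oxygenase Hmox2 lower (-1.37, adjusted p = 2.21e-18), and Epas1, a hypoxia factor with an IRE, averaged 61.1 and 7351 (-6.89, adjusted p = 2.61e-27).

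**Figure D5:**
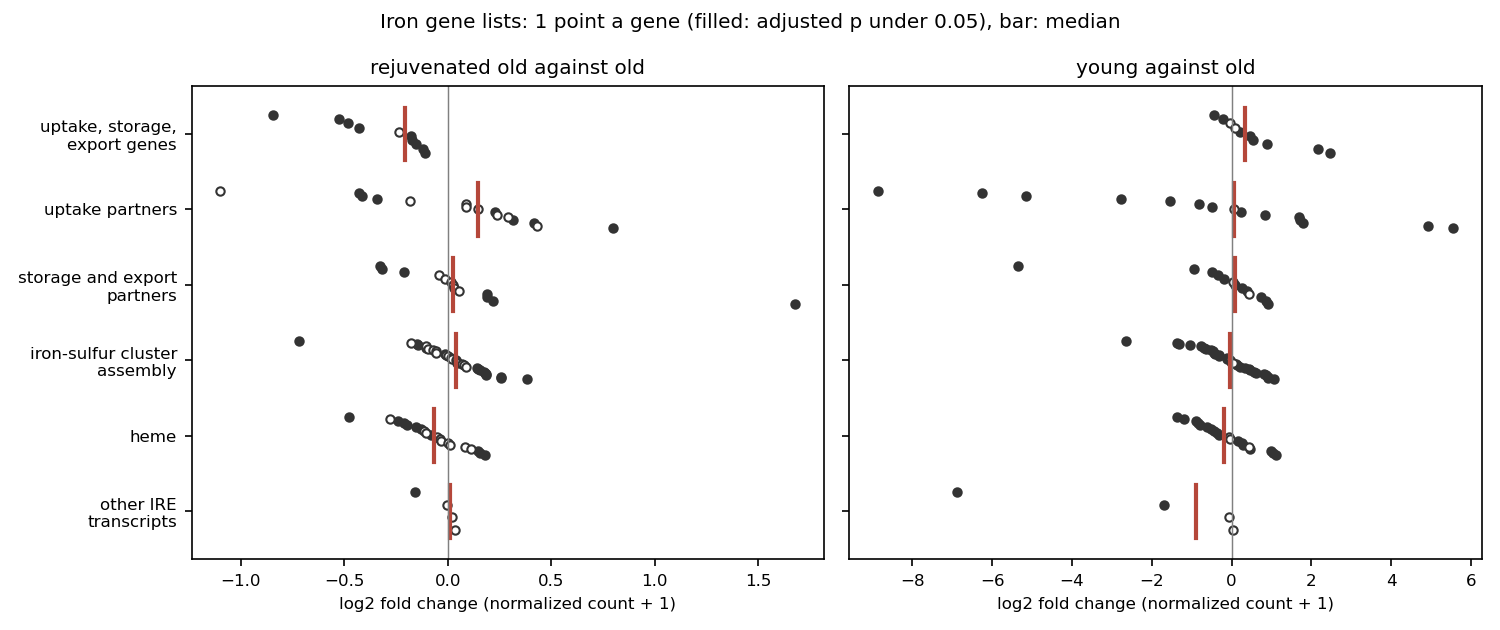
Log2 fold change of each tested gene of the 10 iron genes and 5 further iron lists, 1 point a gene, filled where the adjusted p was under 0.05, with the list's median as a bar, on axes of different width. In rejuvenated old against old MSCs all points of the uptake, storage and export genes lie below 0, while the lists of partners, iron-sulfur and heme genes have points on both sides.

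The genes whose pattern was most like that of Tfrc over the 18 libraries, by the root mean square difference of centred log2 values, were Rgmb (0.0875), Bag3 (0.0906) and Larp4 (0.0959). Those most like Slc40a1 were Ets2 (0.125), Plxdc1 (0.149) and Myh10 (0.150). The 18 libraries form 3 groups and are not independent points, and the values are descriptions.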

How the data were processed

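RNA of 18 MSC cultures was sequenced from Illumina TruSeq Stranded mRNA libraries. Read alignment to the mm10 genome (HISAT2), transcript assembly (StringTie), counting on genes (featureCounts) and normalization (DESeq2) were run by the authors on Galaxy. Versions, gene annotation, strand setting and filters were not given in the sources used here. The deposited table gives each gene a signal in each library, its reads divided by the size factor of that library. Whole reads were recovered for 100% of the values (tolerance 0.001 of a read, largest departure 5.33e-05), which gave 22936251 to 29559194 reads per library; 21697 genes had a read.

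The test was limma 3.58.1 (R 4.3.3) on log2(value + 1), with a variance prior that varies with expression. The 14353 genes averaging 10 or more entered the fit and were called at a Benjamini-Hochberg adjusted p under 0.05. Counts at or below 3 reads were treated as near 0. The count tests were edgeR 4.0.16 (quasi-likelihood) and DESeq2 1.42.0 on the recovered reads, and the tests were tried on simulated data. Python 3.11.15 was used with pandas 2.3.3 and numpy 2.4.6, and plots were made with matplotlib 3.10.9. Gene positions came from RefSeq GRCm38.p6 (mm10), where 25275 genes were found by number, and transcripts from GENCODE M21.

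The 10 genes and all lists were chosen with earlier results of these data known. Named beside the 10 genes were, from each of the 5 iron lists, the called gene with the largest rise and the largest fall against old MSCs, for rejuvenated old and for young MSCs, and for Tfrc and Slc40a1 the 3 genes of smallest difference in pattern, predicted genes left out. A gene that this rule names is not reported here. Trf, Hfe, Mcoln1, Fbxl5, Herc2, Cp, Pcbp1 and Pcbp2 were named as direct partners after their values were seen. Alternatives covered the pseudocount, the filter, the scaling of libraries, a block for the replicate number, 1 prior variance for all genes, fits of 2 groups alone, the count tests, a fold limit and leaving out each library.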

Additional observations from a re-analysis of the deposited data

Results flagged for a closer look

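Of 30 groups of 6 libraries screened, the 10 genes in 3 groups each, 1 held a library far from its others, and chance gives about 1 in 20. Old replicate 5 had 317 normalized counts of Slc40a1, the ferroportin transcript, while the other 5 old libraries lay between 246 and 270.4. Its gap to the nearest of them was 0.660 of the range of the group, above Dixon's 95% limit for a group of this size. The old library remained below every young library and above every rejuvenated old one.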

How the results depend on the processing

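With the alternatives run, 9 of the 10 genes were lower and none higher in rejuvenated old against old MSCs, except that a log2 fold change of at least 0.5 in size left 2 lower and that leaving out single libraries gave 9 to 10. That limit left 4 of the 10 genes in young against old MSCs. In rejuvenated old against young MSCs it left Tfrc, Fth1, Ftl1, Slc40a1, Slc11a2 and Steap3, all lower. Of the other iron genes it left 3, 46 and 42 in rejuvenated old against old, young against old and rejuvenated old against young MSCs. The share of all genes past that limit was not counted. The median absolute log2 fold change over all genes was 0.15, 0.60 and 0.58 in these comparisons. With 1 library left out, the calls were 8 to 8 of the 10 genes in young against old and 9 to 10 in rejuvenated old against young MSCs. Of the other iron genes 32 to 40, 69 to 72 and 69 to 75 were called in the 3 comparisons. Of all genes 37.9% to 41.7%, 84.6% to 86.1% and 84.4% to 85.6% were called, in the same order. Slc39a14 in young against old MSCs turned from -0.04 to 0.031 with the same total per library (adjusted p = 0.559) and to 0.0018 with quantile normalization (adjusted p = 0.973), uncalled in each; the cause was not tested. The calls of Fth1, Ncoa4 and Aco1 that changed are given beside their values.

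With the replicate number as a block, 9, 8 and 9 of the 10 genes were called in the same 3 comparisons, and 36, 72 and 71 of the other iron genes. Of all genes tested, 40.2%, 85.1% and 85.1% were called at that setting. No pairing by number was seen, as 0 of 6 same-numbered pairs correlated over 0.1 in any comparison. Low correlations do not show that cultures of the same number had no mouse or batch in common. Depth sets no limit for the 10 genes, whose lowest value was 163 normalized counts. Copies limit Ftl1 and Ncoa4.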
